A study of Rattus norvegicus with 6 samples.

Results

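The miR-221 and miR-222 pair comprises 4 mature arms: miR-221-3p, miR-221-5p, miR-222-3p and miR-222-5p. They were taken from the deposited small RNA table as every mature miRNA whose identifier, without a final 3p or 5p, was rno-miR-221 or rno-miR-222. These were 4 of the 734 mature miRNAs in the table. The rule uses names and no measured value, but the pair was chosen with earlier results of these data known. The RNA came from primary sertoli cells, the somatic cells that nourish germ cells in the seminiferous tubule, isolated from the testes of Sprague-Dawley rats aged 5 to 10 days, passaged in culture with serum and treated in vitro. There were 3 control samples without 4-NP and 3 samples treated with 0.5 mM 4-NP (4-nonylphenol, an alkylphenol with estrogen-like action), each for 24 h. All 6 samples share the strain and the culture conditions. Nothing in the labels says whether the samples of a group came from separate animals or cultures. The p-values thus measure the spread between these samples, which may be technical.

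A miRNA is cut from a hairpin transcript, and either arm of the hairpin (5p or 3p) can be loaded into Argonaute, where bases 2 to 8, the seed, select target mRNAs. miR-221 and miR-222 are neighbours on the X chromosome that are made from a common transcript and share a seed. They are known for repressing the mRNAs of estrogen receptor alpha (Esr1), the stem cell factor receptor Kit and the cell cycle inhibitor Cdkn1b, and are abundant in vascular and many cultured cells. As 4-NP has estrogen-like action, the comparison of treated with control cells asks whether this pair, linked to the estrogen receptor, differs between them.

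The mature sequences are shown because the seed decides which arms can act on the same targets. They come from RefSeq (assembly GRCr8), run 5′ to 3′, and carry the seed in capitals.
miR-221-3p: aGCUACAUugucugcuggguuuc
miR-222-3p: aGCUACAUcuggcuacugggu
miR-221-5p: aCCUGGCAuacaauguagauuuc
miR-222-5p: gGCUCAGUagccaguguagau

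Both 3p arms had the seed GCUACAU, and each was the only other carrier of that seed among the 606 mature miRNAs of the table that had a RefSeq sequence. The 5p arms had different seeds, which no other miRNA of those 606 shared. The 3p arms began with the same 8 bases, and over 21 positions compared from the 5′ end without gaps 11 were identical. In the 5p arms 5 of 21 positions were identical. After their first 8 bases the 3p arms differ enough in sequence for full-length reads of one to be told from those of the other.

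The hairpins are shown with both arms in capitals, to place the arms that were counted. RefSeq places Mir222 at chrX:6022621-6022723 and Mir221 at chrX:6023182-6023290, both on the plus strand of GRCr8, with 458 bases between them. Each overlaps the bounds of 2 long non-coding RNA genes, LOC120099382 and LOC120099384, in the RefSeq gene table, which gives no exons. The strands of these genes were not compared. The genome build behind the deposited counts is not given in the sources used here, so these positions describe the sequences and not the authors' mapping.
Mir221: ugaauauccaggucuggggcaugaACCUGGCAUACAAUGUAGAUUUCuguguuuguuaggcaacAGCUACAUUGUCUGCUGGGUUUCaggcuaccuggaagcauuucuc
Mir222: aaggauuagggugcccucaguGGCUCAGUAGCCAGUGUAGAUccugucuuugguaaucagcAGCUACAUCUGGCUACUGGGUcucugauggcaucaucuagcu

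The samples held 20023200 to 23426742 reads on mature miRNAs, 62.0 to 63.9% of them on miR-21-5p. Levels are given as CPM, the reads on a miRNA for every 1000000 mature miRNA reads of its sample, and 3 reads were worth 0.128 to 0.150 CPM. The sertoli and gonadal somatic marker miR-202 was present, with a summed level of both arms of 807 to 1195 CPM in control cells and 698 to 796 CPM in treated cells. Of these arms, 0 of 2 were called (adjusted p under 0.05, the threshold used throughout, in the quasi-likelihood test of edgeR). The mean of miR-202-5p was 1026 CPM in control cells and 746 CPM in treated cells. That of miR-202-3p was 1.98 CPM in control cells and 3.39 CPM in treated cells. Markers of other cells were also counted. The endothelial miR-126a arms summed to 6325 to 7615 CPM in control cells and 3234 to 3805 CPM in treated cells, with 2 of 2 lower. The smooth muscle or myoid miR-143 and miR-145 arms summed to 120596 to 136273 CPM and 88389 to 96697 CPM, with 2 of 4 lower. The germ cell miR-34b, miR-34c and miR-449a arms summed to 150 to 167 CPM and 162 to 197 CPM, with 4 of 5 tested higher. Those 4 were the arms of miR-34b and miR-34c. In contrast, miR-449a-5p, the most abundant of this list, had a mean of 124 CPM in control cells and 106 CPM in treated cells. It was not called (log2 fold change -0.25, adjusted p = 0.247 in edgeR). The erythroid miR-451 and miR-144 arms summed to 11.0 to 40.3 CPM and 59.1 to 628 CPM, with 1 of 1 tested higher. The myeloid miR-223 and miR-142 arms summed to 8.05 to 10.6 CPM and 8.36 to 14.1 CPM with 0 of 3 tested called, and the hepatocyte miR-122-5p, also not called, ranged from 0.0427 to 0.538 CPM and from 0.271 to 21.7 CPM. No row of these lists was at 0 in every sample. The part of such cells in the levels of miR-221 and miR-222 was not tested, and in bulk RNA fewer cells of a type and less RNA per cell cannot be told apart.

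miR-221-3p and miR-222-3p, the arms known to repress Esr1, had mean levels in control and 4-NP-treated sertoli cells that differed by less than their SD. Neither rose or fell in the test across all miRNAs, and a 2-fold change in either direction lay outside the 95% interval of both. The 5p arms were far rarer, with miR-221-5p at a mean of 53.3 reads per sample and miR-222-5p at 8.83. The filter on low counts left 3 of the 4 arms in the test, and 0 of these 3 passed the threshold of edgeR's quasi-likelihood test after adjustment, against 20.2% of the 549 mature miRNAs tested. The number was also 0 at an unadjusted p under 0.05 and with DESeq2 and limma. None of the 4 arms had control and 4-NP levels that did not overlap, which 42.4% of the 549 had.

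miR-221-3p had 5470, 5256 and 4686 reads in controls 1, 2 and 3, and 5370, 5094 and 3767 reads in 4-NP samples 1, 2 and 3. Scaled to the mature miRNA reads, these were 233, 228 and 210 CPM in control cells and 243, 254 and 172 CPM in treated cells. 4-NP samples 1 and 2 lay above every control and 4-NP sample 3 below every control, so that the groups overlapped and the spread was wider after treatment. The means were 224 ± 12.1 CPM and 223 ± 44.5 CPM (mean ± SD of 3 samples). Its log2 fold change was -0.03 (SE 0.16, 95% interval -0.43 to 0.36, adjusted p = 0.906 in edgeR), an interval of 0.743-fold to 1.28-fold. Without 4-NP sample 3 the log2 fold change was 0.09 (adjusted p = 0.746 in edgeR).

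miR-222-3p had 4081, 5170 and 3798 reads in control cells and 4491, 4176 and 3630 reads in treated cells. On the scale of mature miRNA reads, the controls had 174, 224 and 170 CPM and the treated samples 203, 209 and 166 CPM. The highest level was that of control 2 and the lowest that of 4-NP sample 3, with the other treated samples between the controls. The mean was 189 ± 29.8 CPM in control cells and 192 ± 23.2 CPM in treated cells (mean ± SD of 3 samples). The log2 fold change was 0.01 (SE 0.13, 95% interval -0.31 to 0.33, adjusted p = 0.977 in edgeR), or 0.806-fold to 1.25-fold. In this fit 5 of the 549 tested miRNAs, miR-222-3p among them, had a change of this size or smaller. For the change of miR-221-3p the number was 32. Both changes were smaller than their SE, so this order is not precise.

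**Figure D1:**
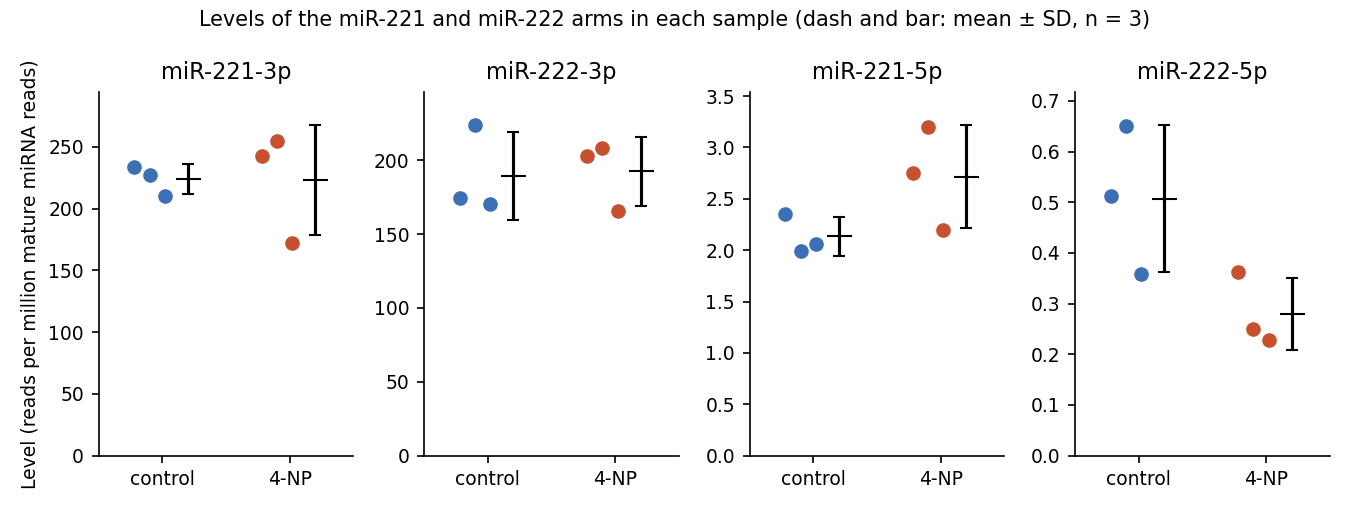
Level of each arm (y axes, CPM, from 0, with a scale of its own in each panel) in the 3 control samples (blue) and the 3 4-NP-treated samples (red), with the mean and SD beside them. The control and 4-NP points overlap in all 4 panels, and miR-221-3p in 4-NP sample 3 (172 CPM) lies below the other samples.

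The 3p arms were of moderate abundance, at rank 107 for miR-221-3p and rank 114 for miR-222-3p among the 734 mature miRNAs by mean CPM over all samples. The miRNAs next to miR-221-3p in level were miR-3543 (226 CPM) and miR-376a-3p (219 CPM), and those next to miR-222-3p were miR-455-5p (191 CPM) and miR-15a-5p (190 CPM). These neighbours differed from the pair by less than their SD over the 6 samples, which ran from 16.6 CPM for miR-455-5p to 135 CPM for miR-3543. Replicate error of the 3p arms was larger than counting error. The coefficient of variation of miR-221-3p was 5.41% in control cells and 20.0% in treated cells, where counting error alone gives 1.40% and 1.45%, and that of miR-222-3p was 15.7% and 12.1%, where it gives 1.52% and 1.56%. Counting error covers only the number of reads, and whether these were collapsed to molecules is not given in the sources used here.

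**Figure D2:**
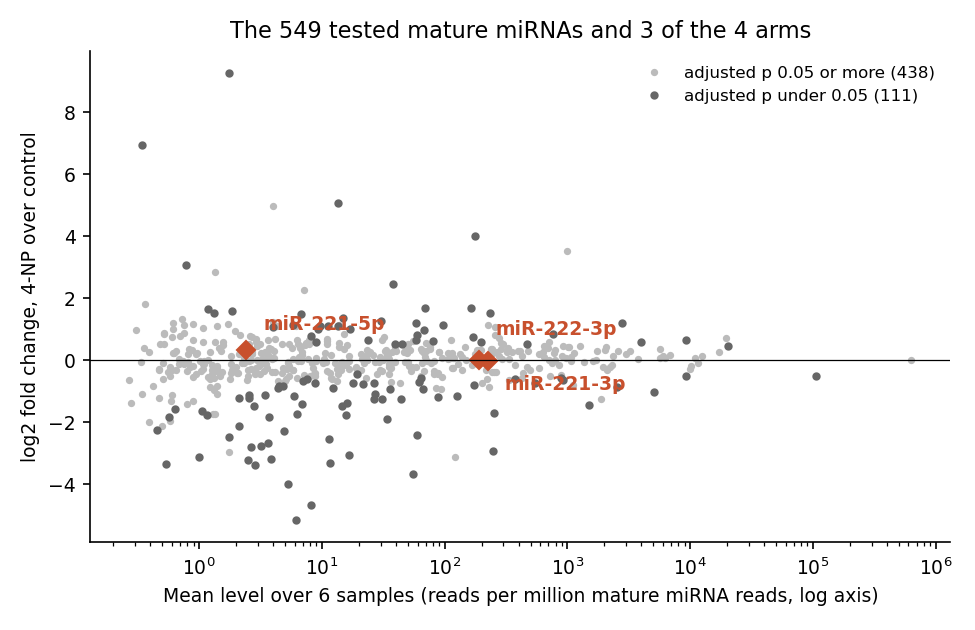
Log2 fold change of 4-NP over control from edgeR (y axis) against mean level over the 6 samples (x axis, log scale) for the 549 tested mature miRNAs, with those at an adjusted p under 0.05 in dark grey. The 3p arms lie on the zero line, and miR-221-5p lies above it at 0.32 among miRNAs that did not pass the test.

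miR-221-3p exceeded miR-222-3p in all 6 samples. The number of miR-221-3p reads per miR-222-3p read was 1.34, 1.02 and 1.23 in the controls and 1.20, 1.22 and 1.04 in the treated samples. The lowest values, in control 2 and in 4-NP sample 3, came from different groups. On the log2 scale the ratio was 0.25 ± 0.20 in control cells and 0.20 ± 0.13 in treated cells (mean ± SD of 3 samples), a difference of -0.05 that was smaller than either SD (exact permutation test, two-sided p = 0.7, with 0.1 the smallest p that 3 against 3 samples allow). Since this ratio is taken within a sample, it does not depend on library scaling.

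**Figure D3:**
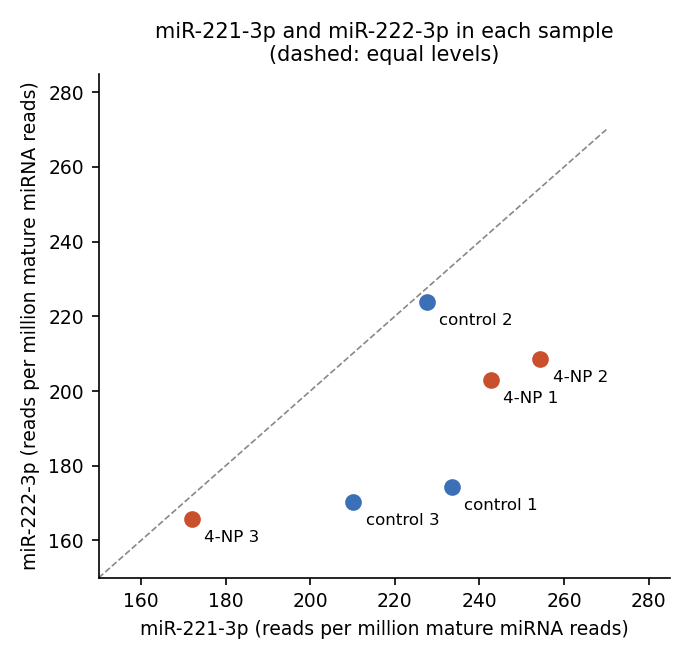
miR-222-3p against miR-221-3p in each sample (both axes in CPM), with control samples in blue, 4-NP samples in red and a dashed line of equal levels. All 6 samples lie on the side where miR-221-3p is higher, with control 2 and 4-NP sample 3 nearest to the line.

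Across the 6 samples the levels of the 3p arms had a Pearson r of 0.68 on the scale of log2(CPM + 1), which is a description of 6 points that share library scaling and carries no test. In this measure 36 other tested miRNAs resembled miR-221-3p more closely than miR-222-3p did. The 3 closest to miR-221-3p were miR-450a-5p (r = 0.99), miR-879-3p (r = 0.97) and miR-664-3p (r = 0.95). The level of miR-450a-5p was 757 ± 67.9 CPM in control cells and 727 ± 231 CPM in treated cells (mean ± SD of 3 samples). Its nearly equal means and wider spread after treatment follow from its choice by likeness to miR-221-3p. The 3 closest to miR-222-3p were miR-100-5p (r = 0.94), miR-10a-5p (r = 0.92) and miR-3577 (r = 0.91), of which miR-3577 was at under 1 CPM. These 6 were picked as the highest of 548 candidates for each arm, over 6 samples.

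miR-221-5p, the rare arm of the miR-221 hairpin, had 55, 46 and 46 reads in control cells and 61, 64 and 48 reads in treated cells. Its levels were 2.35, 1.99 and 2.06 CPM in the controls and 2.76, 3.20 and 2.19 CPM in the treated samples. 4-NP samples 1 and 2 were above every control, while 4-NP sample 3 was below control 1. The means were 2.13 ± 0.188 CPM and 2.71 ± 0.503 CPM (mean ± SD of 3 samples), with a log2 fold change of 0.32 (SE 0.21, 95% interval -0.19 to 0.82, adjusted p = 0.317 in edgeR). The interval reached up to 1.77-fold. The log2 fold change was 0.19 without 4-NP sample 2 and 0.21 without control 2 (adjusted p = 0.600 for each in edgeR).

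miR-222-5p, the rare arm of the miR-222 hairpin, had 12, 15 and 8 reads in control cells and 8, 5 and 5 reads in treated cells, and was removed from the test across all miRNAs by the filter on low counts. The levels were 0.512, 0.649 and 0.359 CPM in control cells and 0.361, 0.250 and 0.228 CPM in treated cells. The lowest control and the highest treated sample had the same number of reads. The mean was 0.507 ± 0.145 CPM in control cells and 0.280 ± 0.0715 CPM in treated cells (mean ± SD of 3 samples), a log2 ratio of the means of -0.86 (exact permutation test of the levels, two-sided p = 0.2). When no miRNA was filtered out, its log2 fold change was -0.83 (SE 0.42, 95% interval -1.83 to 0.18, adjusted p = 0.241 in edgeR). The spread of its levels within a group, at 28.7% and 25.5% of the mean, was no larger than the 29.3% and 40.8% that counting error gives.

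The balance of the arms was compared within each hairpin. Reads of the 5p arm made up 0.995, 0.868 and 0.972% of the miR-221 reads in control cells and 1.12, 1.24 and 1.26% in treated cells, so that every treated sample was above every control. Of the miR-222 reads, the 5p arm made up 0.293, 0.289 and 0.210% in control cells and 0.178, 0.120 and 0.138% in treated cells, so that every treated sample was below every control. The 5p share thus lay in opposite orders in the neighbouring hairpins. For miR-221 the mean share was 0.945 ± 0.0681% in control cells and 1.21 ± 0.0734% in treated cells, and for miR-222 it was 0.264 ± 0.0468% and 0.145 ± 0.0298% (mean ± SD of 3 samples). The exact permutation test gave a two-sided p of 0.1 for each hairpin, the smallest that 3 against 3 samples allow. A lack of overlap was common, as it was found in the arm ratios of 31.4% of the 156 hairpins with both arms past the filter and in 28.0% of the 246 hairpins with both arms in the table and reads on them.

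By counting error, the shares of single samples overlapped. The exact 95% binomial interval was 0.751 to 1.29% for miR-221 in control 1 and 0.929 to 1.66% in 4-NP sample 3, and for miR-222 it was 0.152 to 0.512% in control 1 and 0.0388 to 0.279% in 4-NP sample 2. In limma on the log2 ratio of 3p to 5p reads, the ratio of miR-221 had a difference between 4-NP and control of -0.36 (SE 0.16, 95% interval -0.76 to 0.04, adjusted p = 0.256 over the 156 hairpins). An adjusted p under 0.05 was reached by 5.77% of these hairpins. As miR-222-5p did not pass the filter, its hairpin was fitted among the 246 without a filter, where the difference was 0.81 (SE 0.26, 95% interval 0.17 to 1.46, adjusted p = 0.234 in limma). Neither difference passed the threshold after adjustment. In both hairpins the 3p arm was dominant in every sample, and the rarer arm took 1.07% of the reads of miR-221 and 0.209% of those of miR-222 over all samples, against a median of 3.11% over 227 hairpins with at least 60 reads.

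**Figure D4:**
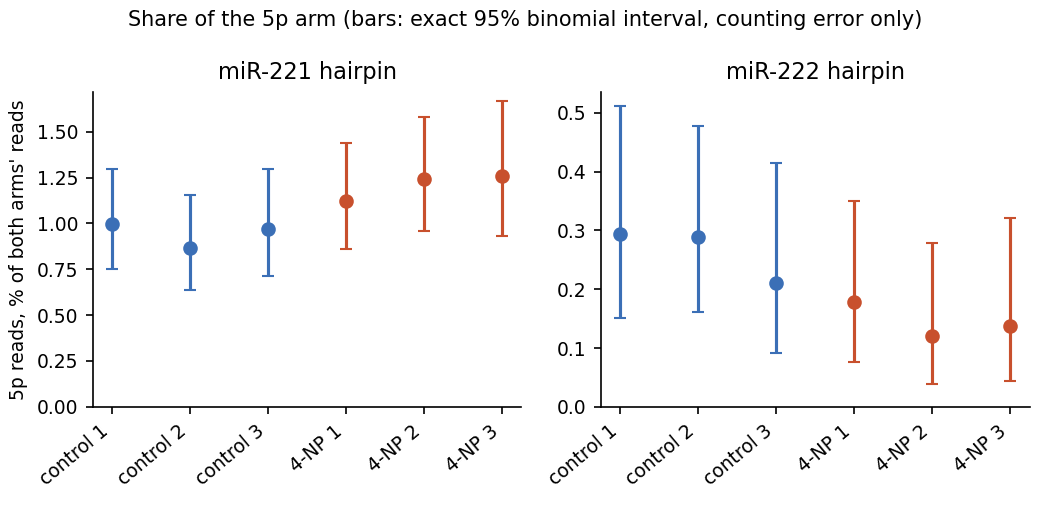
Share of 5p reads among the reads of both arms (y axes, percent, from 0) in each sample for the miR-221 and the miR-222 hairpin, with control samples in blue, 4-NP samples in red and exact 95% binomial intervals as bars. The share is higher in every 4-NP sample than in the controls for miR-221 and lower for miR-222, while the intervals of single samples overlap.

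The table also counts reads on miRNA precursors. A row labelled microRNA mir-221 was the only one found for the pair, and whether it also holds reads of miR-222 is not given. It had 2136, 2447 and 1998 reads in control cells and 2498, 2226 and 2015 reads in treated cells, or 95.6 ± 9.01 and 105 ± 11.6 CPM on the scale of the mature reads (mean ± SD of 3 samples). These ranges overlapped, at 89.6 to 106 in control cells and 92.0 to 113 in treated cells. There were 0.222 to 0.270 such reads for each read on the 4 mature arms.

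Other miRNAs reported to bind the Esr1 mRNA were listed by hairpin name, from general knowledge. The list holds every arm whose identifier, without a final 3p or 5p, was such a name. They were miR-18a, miR-18b, miR-19a, miR-19b, miR-20b, miR-22, miR-145, miR-193b, miR-206 and miR-302. Matched in this way, the table held 14 of their arms, of which 11 were tested, and the other 3 had mean levels of at most 0.316 CPM. No arm of miR-18b or miR-302 was matched. The tested miR-19b-1-5p, which has a further number in its name, is not in the list. Its log2 fold change was 0.49 (SE 0.34, adjusted p = 0.336 in edgeR). At an adjusted p under 0.05 from edgeR, 2 of the 11 were higher, 1 was lower and 8 were not called, so that 3 of 11 were called against 20.2% of all 549 miRNAs. The median log2 fold change was 0.09 over the list and -0.02 over all 549. miR-22-3p, an abundant arm known to repress Esr1, had 17369, 17902 and 16208 CPM in control cells and 25988, 25605 and 19722 CPM in treated cells. Every treated sample was above every control, and its log2 fold change was 0.44 (SE 0.10, adjusted p = 0.0218 in edgeR). The other arm of that hairpin, miR-22-5p, had a log2 fold change of 0.53 (SE 0.12, adjusted p = 0.0243 in edgeR), from 32.1 ± 3.53 to 46.8 ± 2.83 CPM (mean ± SD of 3 samples).

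The calls of the miR-22 arms were near the threshold. With a replicate block the adjusted p was 0.0537 for miR-22-3p and 0.0630 for miR-22-5p in edgeR, and limma gave 0.0717 for miR-22-3p. Leaving out control 2 or 3 or 4-NP sample 1 or 2 took miR-22-3p above 0.05 (0.0590 to 0.0778), and leaving out control 1 or 2 or 4-NP sample 2 or 3 did so for miR-22-5p (0.0584 to 0.0870). miR-145-3p, the rarer arm of its hairpin, fell from 52.9 ± 7.0 to 14.5 ± 2.39 CPM (mean ± SD of 3 samples), a log2 fold change of -1.88 (SE 0.14, adjusted p = 0.000278 in edgeR). For miR-145-5p, the arm known to repress Esr1, the log2 fold change was -0.33 (SE 0.14, adjusted p = 0.159 in edgeR), and for miR-19b-3p it was 0.45 (SE 0.18, adjusted p = 0.121 in edgeR). miR-145 is also among the smooth muscle or myoid markers above.

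**Figure D5:**
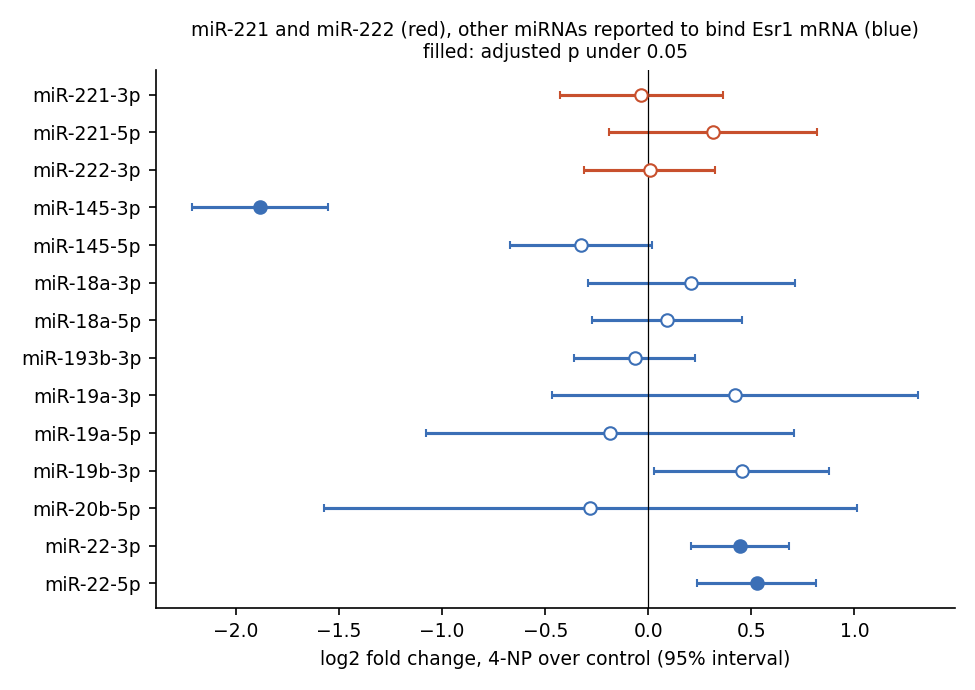
Log2 fold change of 4-NP over control with its 95% interval (x axis) from edgeR for the 3 tested arms of the pair (red) and the 11 tested arms of the Esr1 list (blue), with filled points where the adjusted p was under 0.05. The intervals of miR-221-3p and miR-222-3p span zero and lie within 0.43 of it on either side, while both miR-22 arms lie above zero and miR-145-3p lies below it.

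The pair was also set beside the other miRNAs of its chromosome, a comparison chosen after the values were seen. Of the 549 tested miRNAs, 459 matched a RefSeq miRNA by name, and 74 of these came from the X chromosome alone, among them miR-221-3p, miR-221-5p and miR-222-3p. At an adjusted p under 0.05 from edgeR, 3 of the 74 were higher and 20 were lower. Among all 549, which include the 74 and the miRNAs without a match, 41 were higher and 70 lower (20.2% called). These are counts of arms, so both arms of a hairpin, and hairpins made from a common transcript, count separately. They do not give the number of separate transcripts that changed, or show a change along the whole chromosome. The median log2 fold change was -0.12 over the 74 and -0.02 over all 549, and whether the 74 differ from the rest was not tested. None of the 23 was an arm of miR-221 or miR-222.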

How the data were processed

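The authors excised small RNA from a gel, ligated adapters with molecular identifiers, sequenced the libraries and deposited 1 table of read counts per small RNA, without normalization. The submitters' processing notes name HISAT2 and DESeq2. The miRNA database, the genome build and the counting rule are not given in the sources used here. Each sample also has a deposited column that is headed UMI and holds other values: it is 1 for each of the 4 arms in each sample, so it is no count of molecules and entered no test. Apart from the precursor row, levels and tests used only the mature miRNA rows, which held 81.9 to 85.2% of all reads. All other kinds of small RNA were left out. So were rows that name no gene (exons, introns, intergenic sequence and repeats, 3.52 to 5.91% of all reads).

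Tests used edgeR 4.0.16 under R 4.3.3 (TMM factors of 0.947 to 1.09, filterByExpr defaults, quasi-likelihood F test, no replicate block, Benjamini-Hochberg adjustment over the 549 tested miRNAs). CPM uses the sum of mature miRNA counts. Standard errors were computed from the fold change and F. Arm ratios, with 0.5 added to both counts, were tested with limma 3.58.1. Alternatives were other scalings, filters, DESeq2 1.42.0, limma, a replicate block and the omission of each sample. Arm ratios without a filter were a later addition, made with the values known. The procedure was tested on simulated data. Treated columns were matched to samples by their number. The text names all arms of the pair, the Esr1 list (values for those called or nearest to it), miRNAs that share a seed, the 3 most alike in pattern, neighbours in level and the precursor row. The members and lists were chosen with earlier results of these data known.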

Additional observations from a re-analysis of the deposited data

How the results depend on the processing

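miR-221-3p, miR-221-5p, miR-222-3p and both arm ratios had an adjusted p of at least 0.05 under each alternative run for them. For miR-222-5p, which the filter removed, the fit without a filter was the only alternative with an adjusted p (0.241), and its log2 ratio of means ran from -1.08 to -0.64 when each sample was left out. The adjusted p ran from 0.663 to 0.995 for miR-221-3p, 0.248 to 0.600 for miR-221-5p, 0.789 to 0.980 for miR-222-3p, 0.232 to 0.517 for the arm ratio of miR-221 and 0.211 to 0.390 for that of miR-222. The log2 fold change of miR-221-5p ran from 0.19 to 0.42 when each sample was left out. The signs of the near-zero changes of the 3p arms depended on the setting. The log2 fold change of miR-221-3p was 0.0047 with RLE factors in edgeR and 0.0047 with DESeq2, 0.034 with scaling to the sum without miR-21-5p and 0.0071 with no filter on low counts, and ran from -0.13 to 0.093 when each sample was left out. That of miR-222-3p was -0.036 with at least 10 counts in every sample and ran from -0.047 to 0.071 when each sample was left out. The log2 ratio of miR-221-3p to miR-222-3p differed between the groups by -0.16 to 0.036 without each sample in turn, and was above zero without control 1 or without 4-NP sample 3.

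The numbers called over all miRNAs were 41 higher and 70 lower. With a replicate block they were 26 and 56, and with DESeq2 58 and 72. The correlations of the deviations of same-numbered samples from their group means were -0.30, -0.27 and -0.02. With 3 samples in a group, such deviations cannot decide whether same-numbered samples had a common origin, which the labels do not give. The block changed no call of the 3 tested arms or of the arm ratios. Depth limits the 5p arms, with 5 to 15 reads per sample on miR-222-5p.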
